A study of Mus musculus with 12 samples.

Results

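The splicing factors described here are the SR proteins with the TRA2 proteins, the CLK kinases that phosphorylate SR proteins, the heterogeneous nuclear ribonucleoproteins (hnRNPs), the polypyrimidine tract binding proteins (PTBP), the SF3A, SF3B and U2AF subunits that recognise the branch point and the 3′ splice site, and the SNRP proteins of the small nuclear ribonucleoproteins (snRNPs). They were chosen by gene symbol alone, from probe sets to which the platform annotation gives a single symbol. This took in 59 genes with 166 probe sets, of the 18193 genes and 45037 non-control probe sets on the array. Of these, 57 genes with 147 probe sets passed the filter on dim signals, which kept 12136 genes and 25053 probe sets in all. No probe set of Snrpn or Srsf12 passed it. Another 18 probe sets that list several symbols, at least 1 of them matching, were set aside, which left Srsf7 without a probe set. Probe sets of 1 gene were kept apart throughout.

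Splicing removes introns from pre-mRNA on the spliceosome, which is assembled from snRNPs. SR proteins carry domains rich in arginine and serine and mostly favour the use of the exons they bind, hnRNPs often act against them, and phosphorylation of these domains by CLK kinases and SR protein kinases sets where SR proteins reside and whether they are active. Several SR and hnRNP transcripts hold exons that bring in a premature stop codon, through which the protein limits its own mRNA, and in fat cells splicing factors of these families are known for their part in differentiation, as with Srsf10 and the lipin transcript Lpin1.

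The cells were adipocytes differentiated from 3T3-L1, a mouse fibroblast-like line that turns into fat cells after hormonal induction. All groups shared an induction of 48 h by insulin (5 µg/ml), dexamethasone (1 µM) and the phosphodiesterase inhibitor IBMX (0.5 mM), use at days 8 to 10, and 12 h without serum in 0.2% albumin. They then received 5 µM berberine, a plant alkaloid known as an inhibitor of mitochondrial respiration, for 3 h, 6 h or 12 h, or DMSO, with 3 single-colour 3′ expression arrays per group. The labels do not give the time in DMSO, so berberine and time in culture cannot be told apart, nor do they say whether replicates were separate cultures, so the spread that the p-values rest on may be technical.

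Of 10 adipocyte marker genes, Plin1 was not analysed here, as no probe set was matched to it, and the other 9 were above the detection threshold (a log2 signal of 5.77) in at least 3 arrays, with Adipoq at 15.05 to 15.62 and Fabp4 at 15.47 to 16.02 over the 12 arrays. Of 7 markers of preadipocytes or fibroblasts 6 were also above it, Cd34 being under it in every array, as were 2 of 4 macrophage markers (Ptprc under it in every array) and 1 of 3 endothelial markers (Cdh5 under it in every array). The log2 of the summed adipocyte marker signals was 17.30 to 17.66 with DMSO, 17.50 to 17.67 at 3 h, 17.60 to 17.75 at 6 h and 17.41 to 17.55 at 12 h, and that of the fibroblast markers 15.55 to 15.77, 15.73 to 15.81, 15.70 to 15.78 and 15.68 to 15.74. The macrophage sums were 7.92 to 8.09, 7.94 to 8.36, 8.01 to 8.47 and 8.00 to 8.21 in the same order, and the endothelial sums 6.17 to 6.62, 5.92 to 7.24, 5.69 to 6.92 and 5.62 to 6.86. The ranges with berberine overlapped those with DMSO for all 4 lists at each time. In such bulk RNA, fewer cells of a type and less RNA per cell cannot be told apart. Arrays correlated at 0.960 to 0.968 within groups and 0.950 to 0.966 between groups over the kept probe sets, which are not independent of each other.

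The promoters below belong to the 4 SR protein genes with at least 3 probe sets called lower at 12 h, Srsf1, Srsf2, Srsf3 and Srsf6, and to Clk4, which was called higher. Each is the 250 bases before the gene's start in RefSeq (mouse build GRCm38.p6), 5′ to 3′ on the gene's strand. Capitals mark a CCAAT box, searched as CCAAT or as ATTGG on the other strand, and the cyclic AMP response core TGACGT, searched also as ACGTCA. The motifs were chosen after these promoters had been looked at.
Srsf1 (chr11:88047123-88047372, plus strand): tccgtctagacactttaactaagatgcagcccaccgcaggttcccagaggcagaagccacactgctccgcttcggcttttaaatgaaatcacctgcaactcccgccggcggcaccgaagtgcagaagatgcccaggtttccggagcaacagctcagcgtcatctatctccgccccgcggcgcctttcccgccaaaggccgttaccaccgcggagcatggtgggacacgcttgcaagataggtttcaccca
Srsf2 (chr11:116853095-116853344, minus strand): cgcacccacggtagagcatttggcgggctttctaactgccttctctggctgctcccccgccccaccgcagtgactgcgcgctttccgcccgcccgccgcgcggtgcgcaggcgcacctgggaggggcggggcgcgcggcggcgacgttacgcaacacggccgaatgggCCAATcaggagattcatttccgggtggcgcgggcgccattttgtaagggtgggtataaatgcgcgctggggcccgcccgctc
Srsf3 (chr17:29032410-29032659, plus strand): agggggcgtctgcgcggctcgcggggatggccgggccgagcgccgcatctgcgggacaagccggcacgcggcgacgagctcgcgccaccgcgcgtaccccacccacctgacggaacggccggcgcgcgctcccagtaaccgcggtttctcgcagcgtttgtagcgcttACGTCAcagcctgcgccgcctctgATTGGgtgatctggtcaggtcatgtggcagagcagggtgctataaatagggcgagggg
Srsf6 (chr2:162931258-162931507, plus strand): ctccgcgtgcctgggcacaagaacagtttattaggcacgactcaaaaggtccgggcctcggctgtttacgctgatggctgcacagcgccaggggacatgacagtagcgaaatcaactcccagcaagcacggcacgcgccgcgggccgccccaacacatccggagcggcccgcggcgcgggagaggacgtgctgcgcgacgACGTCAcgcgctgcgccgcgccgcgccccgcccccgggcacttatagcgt
Clk4 (chr11:51262864-51263113, plus strand): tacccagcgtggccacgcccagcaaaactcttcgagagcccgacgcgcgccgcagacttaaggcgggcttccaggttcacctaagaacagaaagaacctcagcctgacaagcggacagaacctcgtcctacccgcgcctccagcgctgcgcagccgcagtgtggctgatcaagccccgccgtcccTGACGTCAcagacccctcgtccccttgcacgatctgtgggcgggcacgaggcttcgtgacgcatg
The Srsf1 window held neither motif, Srsf2 held a CCAAT box, Srsf3 held both motifs, Srsf6 held the TGACGT core, and Clk4 held 2 overlapping matches to that core, 1 on each strand. CCAAT was found in 47.1% of the 51 member promoters that the table lists, 36.4% of the 9806 promoters of genes with a kept probe set and 34.5% of all 27025. TGACGT was found in 19.6%, 10.2% and 6.56% of the same promoters. The 51 include the promoters printed above, which had been looked at before the motifs were chosen, so the member shares are not an independent test. A match describes letters in this window and was not measured as a bound site.

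Among the splicing factors, few probe sets differed from DMSO at 3 h, and at 6 h and 12 h more were lower than higher. The falls lay mostly in Srsf1, Srsf2, Srsf3, Srsf6 and part of the hnRNPs, and the rises took in Clk4, Clk3, Hnrnpa1 and Ptbp3. By limma's test with Benjamini-Hochberg adjustment over all 25053 kept probe sets, and a call at an adjusted p under 0.05, 3 of 147 were higher and 1 was lower at 3 h, where 0.998% of all kept probe sets were called (0.631% higher and 0.367% lower). At 6 h 9 were higher and 33 lower, 28.6% of the members against 10.5% of all kept probe sets (5.3% higher and 5.18% lower). At 12 h 19 were higher and 45 lower, 43.5% against 23.3% (11.5% higher and 11.8% lower). Median log2 changes over the 147 were -0.01, -0.01 and -0.06 at the 3 times, against 0.02, 0.01 and 0.01 over all kept probe sets.

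By gene, 15 of the 57 (26.3%) had a higher and 24 (42.1%) a lower probe set at 12 h, 4 of them both. Among the 12136 genes with a kept probe set these shares were 16.3% and 17.7%. Such shares grow with the number of probe sets per gene. Beyond 1 probe set per gene, the 57 genes had 90 more and the 12136 genes 9570 more. By probe set, 12.9% of the members were higher and 30.6% lower, against 11.5% and 11.8% of all kept probe sets. The groups did not overlap in 41 of 147 probe sets at 3 h, 61 at 6 h and 87 at 12 h, while this held for 17.4%, 27.2% and 36.2% of all kept probe sets. Of the 45 lower at 12 h, 31 (68.9%) were also called lower at 6 h, and the mean of 39 (86.7%) decreased at each step over 3, 6 and 12 h. Of the 2963 probe sets of the array that were lower at 12 h, chosen in the same way, 37.1% were also called lower at 6 h and 77.1% decreased at each step. No probe set was called in opposite directions at 2 times. Of the calls, 29 of 42 at 6 h and 45 of 64 at 12 h held when each array in turn was left out, but none of the 4 at 3 h did. Without DMSO replicate 1 the higher calls at 12 h numbered 10, and at 6 h 5, as they also did without 6 h replicate 2. At 3 h the higher calls numbered 1 without DMSO replicate 1, 0 without 3 h replicate 1 and 1 without 3 h replicate 2. The single lower call at 3 h was lost on leaving out DMSO replicate 1 or 2 or any 3 h array, and became 2 without DMSO replicate 3, 12 h replicate 2, 6 h replicate 2 or 6 h replicate 3.

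**Figure D1:**
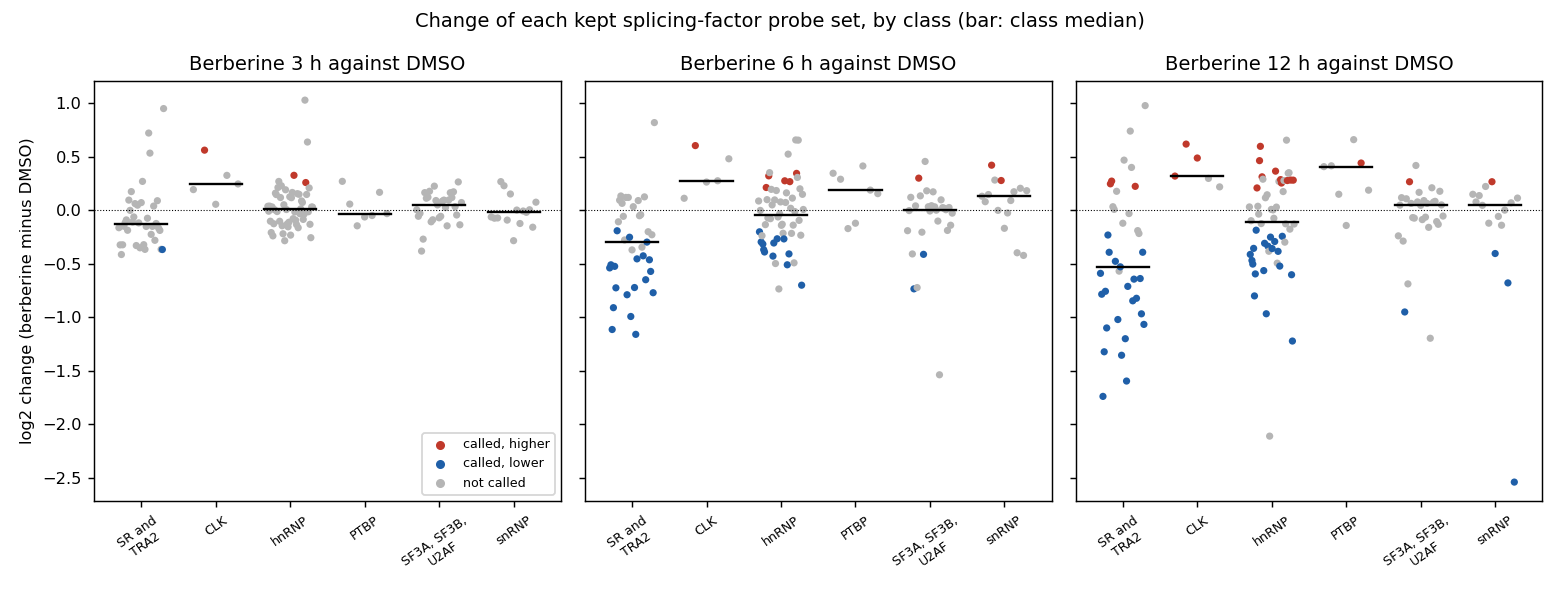
Log2 change (berberine minus DMSO, vertical axis) of each of the 147 kept probe sets by class, with 1 panel per time; red points were called higher, blue points lower and grey points not called, and bars are class medians. At 12 h the SR and TRA2 median lay at -0.53, with 22 of 37 probe sets called lower.

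SR proteins bind exons and promote their splicing. Of their 37 kept probe sets, TRA2 included, 0 were higher and 19 lower at 6 h. At 12 h 3 were higher and 22 lower. The called shares were 51.4% and 67.6%, against 10.5% and 23.3% of all kept probe sets. Median changes were -0.30 and -0.53. The higher calls at 12 h numbered 1 without DMSO replicate 1, 12 h replicate 1 or 12 h replicate 2 and 0 without DMSO replicate 3. Srsf1, Srsf2, Srsf3 and Srsf6 together, grouped with earlier results of these data known, supplied 16 of the 19 and 17 of the 22 lower calls from 20 probe sets, with medians of -0.53 at 6 h and -0.82 at 12 h. Of the other 127 probe sets of splicing factors, 19 were higher (15.0%) and 28 lower (22.0%) at 12 h, with a median of 0.03. Over all kept probe sets these shares were 11.5% and 11.8%. Of the 17 lower calls, 8 came from probe sets whose names end in _x_at or _s_at, which can bind transcripts of several genes.

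Srsf3 encodes the smallest SR protein, which also takes part in mRNA export. Its probe set 1416151_at had log2 signals of 10.16, 10.26 and 10.06 with DMSO, 9.74, 9.68 and 9.82 at 3 h, 8.95, 9.09 and 9.09 at 6 h, and 8.61, 8.20 and 8.46 at 12 h. Every group lay apart from the others, each later time being lower. Against DMSO the log2 change was -0.41 ± 0.11 at 3 h (limma standard error; adjusted p = 0.0829, not called), -1.11 ± 0.11 at 6 h (adjusted p = 6.92e-06) and -1.74 ± 0.11 at 12 h (adjusted p = 1.6e-08), or 3.34-fold lower in geometric mean at 12 h. It was also lower at 6 h than at 3 h by -0.70 (adjusted p = 0.00378) and at 12 h than at 6 h by -0.62 (adjusted p = 0.00296). A second probe set, 1434512_x_at, fell 2.23-fold at 6 h and 3.02-fold at 12 h (adjusted p = 0.00079 and 9.53e-06). Its log2 signals were 9.14, 9.16 and 8.68 at 12 h, against 10.59, 11.01 and 10.18 with DMSO, and the groups did not overlap. The probe sets of this gene did not change alike.

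Probe set 1416152_a_at read 9.43, 9.29 and 9.10 at 12 h, against 10.64, 10.55 and 10.59 with DMSO, a fall of 2.5-fold (adjusted p = 2.4e-08). For 1454993_a_at the values were 9.92, 9.96 and 9.71 at 12 h, against 10.90, 11.00 and 10.89, a fall of 2.09-fold (adjusted p = 9.27e-08). The brightest Srsf3 probe set, 1416150_a_at, gave 11.42, 11.47 and 11.19 at 12 h, against 12.09, 12.34 and 12.00 with DMSO, and fell 1.72-fold (adjusted p = 1.89e-05). In each of these 3 the 12 h arrays all lay under the DMSO arrays. The sixth probe set, 1438215_at, had a log2 change of -0.03 ± 0.21 at 12 h (adjusted p = 0.939). The only member called lower at 3 h was 1454993_a_at, at -0.37 ± 0.08 (adjusted p = 0.0334), and the adjusted p was 0.105 on leaving out either DMSO replicate 1 or 2, and 0.108, 0.0999 and 0.121 on leaving out 3 h replicates 1, 2 and 3.

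**Figure D2:**
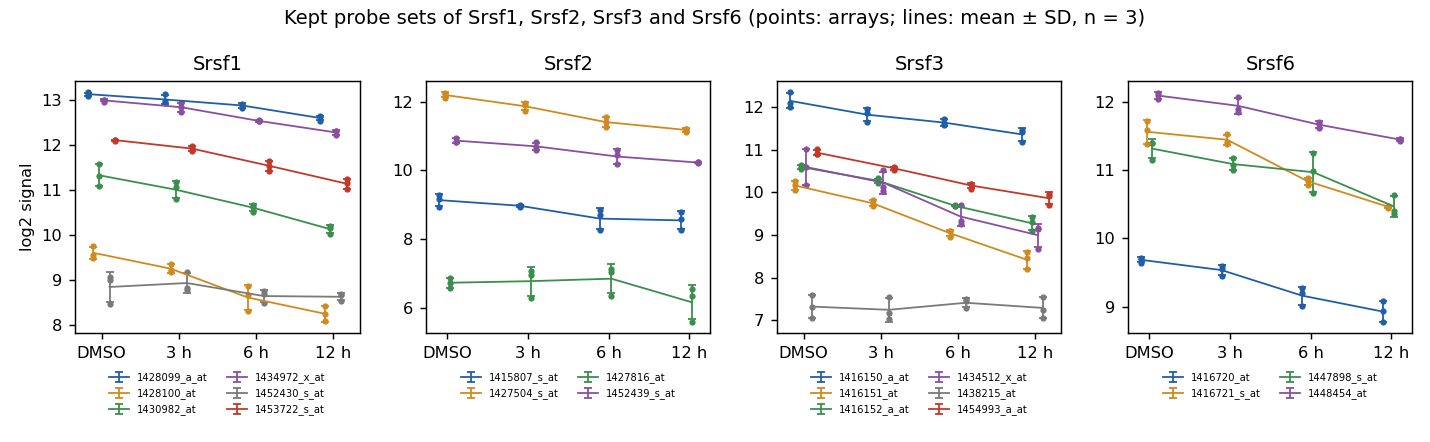
Log2 signal (vertical axis) of every kept probe set of Srsf1, Srsf2, Srsf3 and Srsf6 with DMSO and after 3, 6 and 12 h of berberine; points are arrays and lines join means ± SD (n = 3). Most lines step down over the 3 times, while 1438215_at of Srsf3 moved by -0.03 at 12 h.

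Srsf1, also known as SF2/ASF, is a founding SR protein that acts in constitutive and alternative splicing. Probe set 1428100_at read 9.50, 9.55 and 9.76 with DMSO, 9.17, 9.23 and 9.36 at 3 h, 8.87, 8.31 and 8.66 at 6 h, and 8.43, 8.24 and 8.09 at 12 h. The DMSO arrays lay above all berberine arrays, and the 3 h arrays above those of 6 h and 12 h. The change was -0.99 ± 0.14 at 6 h (adjusted p = 0.000234) and -1.35 ± 0.14 at 12 h (adjusted p = 2.4e-06), or 2.56-fold lower. Probe set 1430982_at read 11.32, 11.58 and 11.10 with DMSO, 11.17, 10.79 and 11.06 at 3 h, 10.64, 10.52 and 10.67 at 6 h, and 10.19, 10.03 and 10.17 at 12 h. Here the 3 h arrays overlapped the DMSO arrays, and the 6 h and 12 h arrays lay below them. It was 2.3-fold lower at 12 h (adjusted p = 8.8e-07).

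The Srsf1 probe sets 1453722_s_at and 1434972_x_at, changed by -0.57 and -0.45 at 6 h and by -0.97 ± 0.07 and -0.71 ± 0.06 at 12 h (adjusted p at 12 h = 7.34e-08 and 2.77e-07). The brightest, 1428099_a_at, had 12.64, 12.63 and 12.54 at 12 h, against 13.13, 13.17 and 13.10 with DMSO. These groups lay apart, and the fall was 1.44-fold (adjusted p = 8.45e-06). At 6 h it was called too, at -0.25 (adjusted p = 0.0133, or 0.0574 without 6 h replicate 3). The sixth, 1452430_s_at, changed by -0.22 at 12 h (adjusted p = 0.347).

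Srsf2, or SC35, is an SR protein used as a mark of nuclear speckles. Probe set 1427504_s_at read 12.22, 12.11 and 12.25 with DMSO, 11.73, 11.91 and 11.95 at 3 h, 11.40, 11.25 and 11.56 at 6 h, and 11.12, 11.19 and 11.21 at 12 h. The groups did not overlap and stepped down in the order of time. The change was -0.33 at 3 h (adjusted p = 0.0631, not called), -0.79 ± 0.08 at 6 h (adjusted p = 1.11e-05) and -1.02 ± 0.08 at 12 h (adjusted p = 1.44e-07), or 2.03-fold lower. Probe set 1452439_s_at changed by -0.46 at 6 h and by -0.64 ± 0.09 at 12 h (adjusted p = 0.0042 and 8.88e-05). For 1415807_s_at the 12 h change was -0.59 (adjusted p = 0.0104, or 0.0625 without 12 h replicate 2). Its 6 h change was -0.54 (adjusted p = 0.0344), and the adjusted p became 0.105, 0.122, 0.0517 and 0.17 without DMSO replicates 1 and 3 and 6 h replicates 1 and 2.

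Srsf6, or SRp55, is an SR protein whose 4 kept probe sets were all lower at 12 h. Probe set 1416721_s_at read 11.59, 11.38 and 11.72 with DMSO, 11.41, 11.39 and 11.53 at 3 h, 10.78, 10.88 and 10.84 at 6 h, and 10.48, 10.47 and 10.44 at 12 h. The 3 h arrays overlapped those with DMSO, and the 6 h and 12 h arrays lay below both and apart from each other. The change was -0.12 at 3 h, -0.73 ± 0.08 at 6 h (adjusted p = 2.61e-05) and -1.10 ± 0.08 at 12 h (adjusted p = 7.36e-08), or 2.14-fold lower. At 12 h the other probe sets had changes of -0.85 ± 0.12 (1447898_s_at), -0.76 (1416720_at) and -0.64 ± 0.06 (1448454_at), with adjusted p of 7.41e-05, 3.55e-05 and 2.15e-06. These calls held without each of the 12 arrays.

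The other SR proteins were mixed. Srsf10, which can repress splicing when dephosphorylated, had a probe set, 1449121_at, that read 9.63, 9.75 and 9.38 with DMSO, 9.24, 9.29 and 9.38 at 3 h, 9.05, 9.18 and 8.58 at 6 h, and 8.71, 8.77 and 8.81 at 12 h. The 6 h and 12 h arrays lay under those with DMSO, with changes of -0.65 ± 0.14 and -0.82 ± 0.14 (adjusted p = 0.00567 and 0.000296). The brightest Srsf10 probe set, 1423982_at, changed by 0.01 at 12 h (adjusted p = 0.973). The other Srsf10 probe sets were called in opposite directions at 12 h. For 1418526_at the change was -0.39 (adjusted p = 0.013, or 0.0732 without DMSO replicate 2 and 0.0561 without 12 h replicate 2). For 1418527_a_at it was 0.25 (adjusted p = 0.0453), a call lost on leaving out DMSO replicate 2 or 3 (0.136 and 0.116), 12 h replicate 1 or 2 (0.129 and 0.137), 3 h replicate 1 or 2 (0.0569 and 0.0503) or any 6 h array (0.0517, 0.0548 and 0.0527 for replicates 1 to 3).

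Srsf11, an SR-related protein, fell at 12 h by probe set 1427269_at (-0.48 ± 0.10, adjusted p = 0.00181), and Srsf9, which represses some exons, by 1417727_at (-0.23 ± 0.06, adjusted p = 0.00693). The 3 kept Srsf11 probe sets had 12 h changes from -0.48 to 0.47 with a median of -0.19, and only 1427269_at was called. At 6 h the called Srsf11 probe set was 1452371_at, at -0.30.

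Srsf4 rose at 12 h by 0.22 (adjusted p = 0.0265), and the adjusted p became 0.0576, 0.0814 and 0.116 without DMSO replicates 1 and 3 and 12 h replicate 1. Srsf5, known as an insulin-responsive SR protein, changed by 0.03 ± 0.08 at 12 h in probe set 1423130_a_at (adjusted p = 0.835). The TRA2 proteins, which activate exons rich in GAA, went in both directions in their called probe sets, 1 for each gene. Their 7 kept probe sets had 12 h changes from -0.39 to 0.98 with a median of 0.27, and 2 of the 7 were below 0. The other 5 probe sets were not called. Tra2a probe set 1454725_at changed by -0.39 (adjusted p = 0.0213, or 0.115, 0.0546 and 0.0672 without DMSO replicate 2 and 12 h replicates 1 and 2). Tra2b probe set 1419543_a_at changed by 0.27 (adjusted p = 0.017, or 0.0571, 0.0608 and 0.0926 without DMSO replicates 1 and 3 and 12 h replicate 2).

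The CLK kinases phosphorylate SR proteins in the nucleus. Of their 5 kept probe sets, 3 were higher and 0 lower at 12 h, where 11.5% of all kept probe sets were higher and 11.8% lower. Clk4 probe set 1422886_a_at read 9.21, 9.46 and 9.37 with DMSO, 9.90, 9.92 and 9.89 at 3 h, 10.14, 9.93 and 9.77 at 6 h, and 9.91, 9.87 and 10.11 at 12 h. Every berberine array lay above every DMSO array, and the 3 berberine times overlapped. The change was 0.56 ± 0.10 at 3 h, 0.60 ± 0.10 at 6 h (adjusted p = 0.00137) and 0.62 ± 0.10 at 12 h (adjusted p = 0.000332), or 1.53-fold higher. The 3 h call (adjusted p = 0.0116) became 0.0814, 0.0533 and 0.0594 without DMSO replicate 1 and 3 h replicates 1 and 2. The second Clk4 probe set, 1427663_a_at, was not called, with changes of 0.24, 0.48 and 0.22.

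Clk3 probe set 1423849_a_at read 9.16, 9.11 and 9.39 with DMSO, 9.32, 9.16 and 9.36 at 3 h, 9.67, 9.48 and 9.31 at 6 h, and 9.74, 9.57 and 9.82 at 12 h. Only the 12 h arrays lay clear of the DMSO arrays, with a change of 0.49 ± 0.11 (adjusted p = 0.0045), or 1.4-fold higher. Clk2 had a 12 h change of 0.32 ± 0.10 (adjusted p = 0.0222), and the adjusted p became 0.0755, 0.0528, 0.0589 and 0.105 without DMSO replicates 1 and 3 and 12 h replicates 1 and 2. For Clk1 the values were 11.22, 11.52 and 11.63 with DMSO, 11.65, 11.76 and 11.94 at 3 h, 11.99, 11.66 and 11.55 at 6 h, and 11.61, 11.90 and 11.75 at 12 h. The 3 h arrays lay just above those with DMSO and the later times overlapped them, and the changes of 0.32, 0.27 and 0.30 were not called (adjusted p = 0.255, 0.165 and 0.0829).

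**Figure D3:**
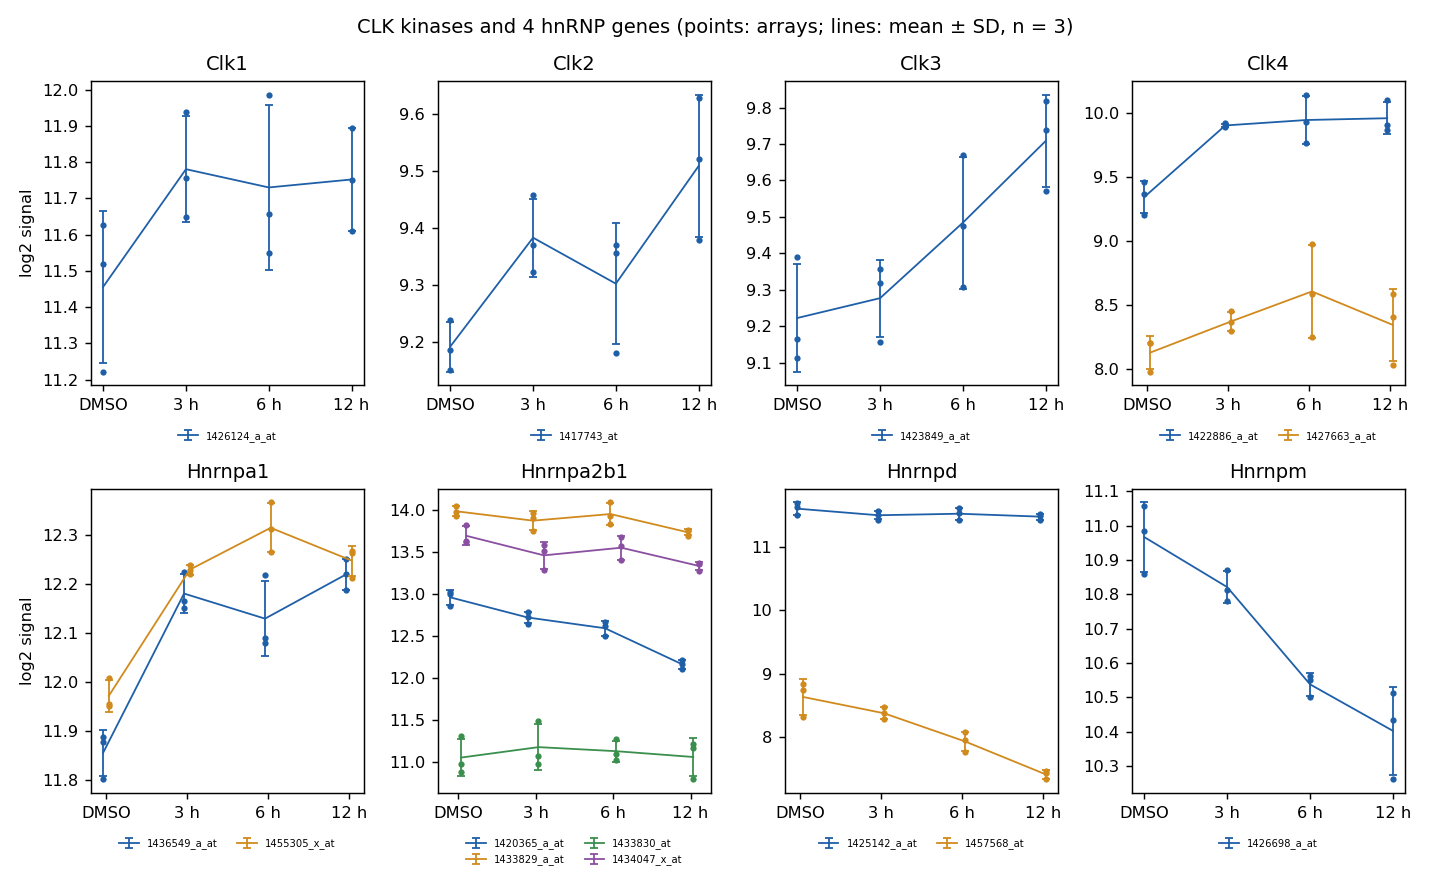
Log2 signal (vertical axis) of kept probe sets of Clk1, Clk2, Clk3, Clk4, Hnrnpa1, Hnrnpa2b1, Hnrnpd and Hnrnpm by group, with points for arrays and lines for means ± SD (n = 3); Hnrnpa1 probe set 1455740_at is not drawn. Clk4 probe set 1422886_a_at stepped up by 3 h, while Hnrnpd probe set 1457568_at stepped down over the time course.

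The hnRNPs coat nascent transcripts and shape splicing, export and mRNA stability. Of their 54 kept probe sets, 5 were higher and 12 lower at 6 h, and 10 were higher and 19 lower at 12 h. Called shares were thus 31.5% and 53.7%, against 10.5% and 23.3% of all kept probe sets. Without DMSO replicate 1 the higher calls at 12 h numbered 6. Hnrnpa1, a repressor of exons that opposes SR proteins, was higher in probe sets 1436549_a_at and 1455305_x_at. The first read 11.89, 11.88 and 11.80 with DMSO, 12.22, 12.15 and 12.17 at 3 h, 12.22, 12.08 and 12.09 at 6 h, and 12.22, 12.19 and 12.25 at 12 h. All berberine arrays lay above the DMSO arrays, by 0.32 ± 0.06 at 3 h, 0.27 at 6 h (adjusted p = 0.00703) and 0.36 ± 0.06 at 12 h (adjusted p = 0.000256). Its 3 h call (adjusted p = 0.0108) became 0.0683 without 3 h replicate 1. The second had changes of 0.34 and 0.28 at 6 h and 12 h (adjusted p = 0.00074 and 0.00133). Its 3 h change of 0.26 (adjusted p = 0.0293) lost the call on leaving out 1 of the first 2 DMSO arrays (0.128 and 0.0704) or any 3 h array (0.0954, 0.124 and 0.0896 for replicates 1 to 3).

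Hnrnpd, or AUF1, binds AU-rich elements and directs mRNA turnover. Its probe set 1457568_at read 8.84, 8.31 and 8.75 with DMSO, 8.38, 8.47 and 8.28 at 3 h, 8.08, 7.77 and 7.95 at 6 h, and 7.47, 7.43 and 7.34 at 12 h. The 6 h and 12 h arrays lay below all earlier ones and apart from each other. The change was -0.70 ± 0.15 at 6 h and -1.22 ± 0.15 at 12 h (adjusted p = 0.00719 and 1.9e-05), or 2.33-fold lower at 12 h. The brightest Hnrnpd probe set, 1425142_a_at, changed by -0.13 ± 0.07 at 12 h (adjusted p = 0.234).

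Hnrnpa2b1, which packages nascent RNA and takes part in RNA transport, read 13.03, 13.00 and 12.86 with DMSO, 12.65, 12.79 and 12.73 at 3 h, 12.50, 12.62 and 12.66 at 6 h, and 12.21, 12.17 and 12.10 at 12 h in probe set 1420365_a_at. The 12 h arrays lay below all others, with a change of -0.80 ± 0.07 (adjusted p = 2.6e-07), after -0.37 at 6 h (adjusted p = 0.00192). By limma's test of unequal pairs, described below, this probe set changed toward lower values than the brightest of Hnrnpa2b1 at 12 h (adjusted p = 0.00468). The values of the gene's other probe sets are not given here. Hnrnpm, which binds GU-rich introns, read 10.51, 10.26 and 10.43 at 12 h, against 10.86, 11.06 and 10.98 with DMSO, and Hnrnpu, a scaffold protein that binds chromatin and RNA, read 12.27, 12.25 and 12.27 in probe set 1423050_s_at, against 12.81, 12.90 and 12.86. In both probe sets the groups lay apart. Their 12 h changes were -0.56 ± 0.08 and -0.60 ± 0.05 (adjusted p = 5.5e-05 and 5.54e-07), after -0.43 and -0.39 at 6 h (adjusted p = 0.00214 and 0.000181). The Hnrnpu probe set also changed toward lower values than that gene's brightest by the same pair test (adjusted p = 0.00615). Values of the other Hnrnpu probe sets are not given here.

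Smaller falls at 12 h that held without each array were those of Hnrnph1 (-0.41, adjusted p = 0.000116) and Hnrnph2 (-0.47, adjusted p = 2.73e-05), which bind G-rich runs, Hnrnpa0 (-0.34, adjusted p = 0.00139), Hnrnpab (-0.52, adjusted p = 0.00464), Hnrnpul2 (-0.29, adjusted p = 0.00426) and both called Hnrnpr probe sets (-0.31 and -0.38). Hnrnpll, a regulator of exon skipping in lymphocytes, rose by 0.31 (adjusted p = 0.00228). Hnrnpl, which binds CA repeats, changed by -0.01, -0.07 and -0.04 ± 0.07 at the 3 times in probe set 1424101_at and was not called (adjusted p = 0.781 at 12 h).

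Probe sets of Hnrnpdl and Hnrnpc were called in opposite directions. Hnrnpdl, a close relative of Hnrnpd, read 13.23, 13.38 and 13.21 at 12 h, against 12.73, 12.80 and 12.90 with DMSO, in its brightest probe set 1424251_a_at. In 1428224_at it read 7.85, 7.23 and 7.94, against 8.46, 8.70 and 8.76. Neither pair of groups overlapped, and the 12 h changes were 0.46 ± 0.06 (adjusted p = 3.79e-05) and -0.97 ± 0.19 (adjusted p = 0.00107). Another, 1456698_s_at, changed by -0.60 ± 0.09 (adjusted p = 7.18e-05). Hnrnpc, which binds uridine tracts, read 13.55, 13.59 and 13.56 at 12 h, against 13.26, 13.28 and 13.32 with DMSO, in 1460240_a_at, and 9.25, 9.34 and 9.35, against 9.76, 9.90 and 9.78, in 1418693_at. The first changed by 0.28 ± 0.06 (adjusted p = 0.00401) and the second by -0.50 ± 0.09 (adjusted p = 0.000402), again with no overlap.

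PTBP proteins bind pyrimidine tracts and repress exons. Ptbp3 probe set 1455819_at read 11.15, 11.30 and 11.31 with DMSO, 11.39, 11.37 and 11.51 at 3 h, 11.53, 11.45 and 11.36 at 6 h, and 11.70, 11.72 and 11.67 at 12 h. The berberine arrays all lay above those with DMSO, and the 12 h change of 0.44 ± 0.07 was called (adjusted p = 0.000182), while 0.17 and 0.19 at the earlier times were not. The brightest Ptbp1 probe set, 1424874_a_at, changed by -0.14 at 12 h (adjusted p = 0.192), and Ptbp2, the neuronal relative, by 0.41 ± 0.14 (adjusted p = 0.0507).

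Of the 29 kept probe sets of the SF3A, SF3B and U2AF genes, 1 was higher and 2 were lower at 6 h. At 12 h 1 was higher and 1 lower. The called shares were 10.3% and 6.90%, against 10.5% and 23.3% of all kept probe sets. Medians were 0.00 and 0.05. Sf3b1, which holds the branch point in the U2 snRNP, was lower in probe set 1418561_at, with values of 8.52, 8.82 and 8.94 with DMSO, 8.55, 8.38 and 8.54 at 3 h, 8.03, 8.08 and 7.96 at 6 h, and 7.78, 7.89 and 7.76 at 12 h. The 6 h and 12 h arrays lay below the rest and apart from each other, with changes of -0.73 ± 0.13 and -0.95 ± 0.13 (adjusted p = 0.00189 and 5.48e-05). Its brightest probe set, 1449138_at, changed by 0.21 at 12 h and was not called (adjusted p = 0.0569), nor were 1418562_at (0.11) and 1440818_s_at (-0.16). Sf3b2 was lower at 6 h alone, in 1429362_a_at, which read 9.67, 9.62 and 9.53 at 6 h, against 9.99, 10.03 and 10.03 with DMSO. These groups lay apart (-0.41 ± 0.09, adjusted p = 0.00776), and the 12 h change was -0.07 (adjusted p = 0.626). At 12 h the lower calls of this class numbered 2 without 12 h replicate 1.

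The rise was that of U2af1, the subunit that reads the AG at the end of the intron, with changes of 0.30 at 6 h and 0.26 at 12 h (adjusted p = 0.0186 and 0.018). At 6 h its adjusted p became 0.0749, 0.053 and 0.0829 without DMSO replicates 1 and 3 and 6 h replicate 2. At 12 h it became 0.0687, 0.0514, 0.105 and 0.066 without DMSO replicates 1 and 3 and 12 h replicates 1 and 2. Its partner U2af2 had changes of -0.38, -0.41 and -0.29 ± 0.23 at the 3 times and was not called (adjusted p = 0.427 at 12 h).

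SNRP proteins form the ring and the specific parts of the snRNPs. Of 15 kept probe sets, 2 were higher and 0 lower at 6 h, and 1 was higher and 3 lower at 12 h. Called shares were 13.3% and 26.7%, against 10.5% and 23.3% of all kept probe sets. At 12 h the lower calls numbered 1 without DMSO replicate 1 or 2 or 12 h replicate 1 or 2, and the higher calls numbered 0 without DMSO replicate 1 or 12 h replicate 2. At 6 h the higher calls numbered 0 without DMSO replicate 1, DMSO replicate 3, 6 h replicate 2 or 6 h replicate 3, and 1 without DMSO replicate 2, 3 h replicate 3, 6 h replicate 1 or 12 h replicate 2. Snrpb2, of the U2 snRNP, read 2.98, 2.43 and 5.58 at 12 h, against 6.20, 6.57 and 5.85 with DMSO, in the dim probe set 1452131_at. All the 12 h values lay under the detection threshold, so no fold is given. Its call (adjusted p = 0.011) was lost with dim values raised to the threshold (adjusted p = 0.131). Another Snrpb2 probe set, 1426613_a_at, went the other way, at 11.81, 11.95 and 11.86 at 12 h, against 11.55, 11.63 and 11.64 with DMSO, which did not overlap. Its 12 h change was 0.27 (adjusted p = 0.0254, or 0.0936, 0.106 and 0.0502 without DMSO replicate 1 and 12 h replicates 2 and 3). At 6 h the change was 0.28 (adjusted p = 0.0385), and the call was lost on leaving out DMSO replicate 1, 2 or 3 (0.134, 0.0664 and 0.0609), 6 h replicate 2 or 3 (0.15 and 0.153) or 3 h replicate 1 (0.0503). Snrpb, a core ring protein, changed by 0.22 (adjusted p = 0.0922).

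Comparisons between berberine times do not use the DMSO arrays for the difference. Between 6 h and 3 h 0 members were higher and 11 lower at 6 h, where 1.43% of all kept probe sets were called (0.651% higher and 0.782% lower), and 10 of the 11 belonged to Srsf1, Srsf2, Srsf3 or Srsf6. Between 12 h and 6 h 1 was higher and 12 lower at 12 h, where 3.78% of all were called (1.66% higher and 2.12% lower), and 9 of the 12 were from these genes. Between 12 h and 3 h 6 were higher and 34 lower, where 13.7% of all were called (6.04% higher and 7.65% lower), and 16 of the 34 were from these genes. Leaving out 3 h replicate 1, 2 or 3 turned the 11 into 5, 3 or 4, and leaving out 6 h replicate 2 or 3 into 3 or 4. The 13 calls between 12 h and 6 h numbered 6, 5 or 8 on leaving out 6 h replicate 1, 2 or 3, and 6 on leaving out either 12 h replicate 2 or 3. Over all 4 groups, limma's F test called 52 of the 147 members, against 19.4% of all kept probe sets.

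Members with several probe sets allow a test of whether these changed unequally, from the difference of each further probe set to the gene's brightest within an array. The files do not place probe sets on transcripts. Of 90 such pairs in 38 genes, 19 pairs in 13 genes were called at 12 h, or 21.1%, against 7.43% of the 9570 pairs on the array; at 3 h 0 and at 6 h 1 were called, against 0.0209% and 0.961%. In 17 of the 19 the further probe set changed toward lower values than the brightest, as in 57.2% of the 711 pairs called on the array. The 19 numbered 12 without DMSO replicate 1 and 10 without 12 h replicate 2, and 10 held without each array in turn.

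Those 10 included Sf3b1, with a difference between the changes of 1418561_at and its brightest probe set of -1.16 ± 0.16 (adjusted p = 0.00284), and Hnrnpd, with -1.10 ± 0.18 (adjusted p = 0.0061). The 3 called pairs of Hnrnpdl were among them, from -0.82 to -1.43, as were Hnrnpc (-0.78 ± 0.13, adjusted p = 0.00744), Hnrnpa2b1 (-0.55 ± 0.08, adjusted p = 0.00468) and Hnrnpu (-0.41 ± 0.07, adjusted p = 0.00615). Srsf3 probe set 1416151_at differed from its brightest by -0.95 ± 0.16 (adjusted p = 0.00618). Hnrnpk, a poly(C)-binding protein, differed the other way, by 0.41 ± 0.06 (adjusted p = 0.004), its probe set 1448176_a_at rising by 0.28 (adjusted p = 0.00171) beside a brightest one at -0.13 (adjusted p = 0.118). The other 9, of Srsf1, Srsf2, Srsf3, Srsf6, Srsf10 and Snrpb2, each lost the call without at least 1 array.

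**Figure D4:**
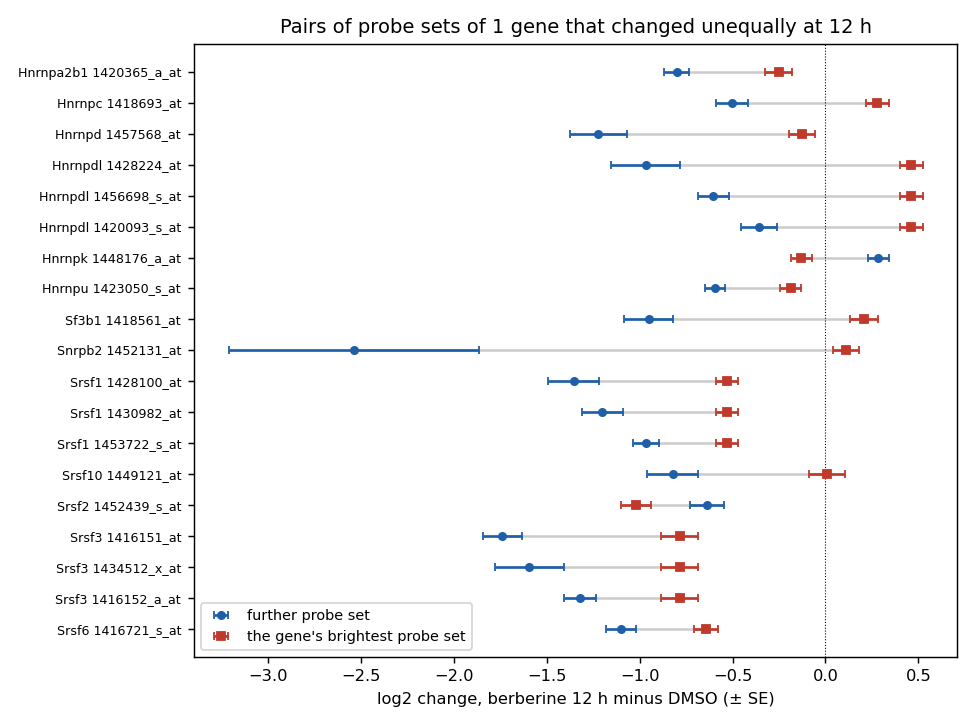
Log2 change at 12 h (berberine minus DMSO, ± SE, horizontal axis) of the 19 further probe sets called as unequal (blue circles) and of the brightest probe set of the same gene (red squares). In 8 pairs, of Hnrnpc, Hnrnpdl, Hnrnpk, Sf3b1, Snrpb2 and Srsf10, the 2 symbols lie on opposite sides of 0. The further Snrpb2 probe set, 1452131_at, lay under the detection threshold in all 12 h arrays, so its size is not reliable. Its pair call by limma (adjusted p = 0.0489) was lost with dim values raised to the threshold (0.0825).

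Other genes of the splicing pathway were taken from lists made with earlier results of these data known. Over all kept probe sets, 11.5% were higher and 11.8% lower at 12 h. The kinases, phosphatases and importers of SR proteins (21 probe sets) had 2 higher (9.52%) and 3 lower (14.3%) at 12 h. The 2 became 1 without DMSO replicate 1 or 2 or 12 h replicate 2 or 3. Srpk1, an SR protein kinase, changed by -0.70 ± 0.09 in probe set 1455107_at (adjusted p = 3.24e-05) and its relative Srpk2 by 0.39 ± 0.08 in 1417135_at (adjusted p = 0.00188). The LSm proteins, most of which form the ring of the U6 snRNP (14 probe sets), had 0 higher and 6 lower (42.9%). Among these was Lsm6 at -0.85 ± 0.17 and -0.51 (adjusted p = 0.00129 and 0.00617). The SMN complex and its partners, which assemble snRNPs (26 probe sets), had 1 higher (3.85%) and 3 lower (11.5%). Wdr77 changed by -0.93 ± 0.16 and -0.47 (adjusted p = 0.000503 and 9.29e-05), and Gemin2 by 0.57 ± 0.09 (adjusted p = 0.000124). The 1 became 2 without 12 h replicate 2 or 3 h replicates 2 or 3.

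Core spliceosome proteins (109 probe sets) had 17 higher (15.6%) and 12 lower (11.0%) at 12 h, against 11.5% and 11.8% of all kept probe sets. The 17 became 8, 9, 8 and 11 without DMSO replicate 1 and 12 h replicates 1, 2 and 3. The helicase gene Ddx46 changed by -1.16 ± 0.14 (adjusted p = 1.03e-05). Other splicing regulators (92 probe sets) had 19 higher (20.7%) and 11 lower (12.0%). Rbfox2, which binds GCATG, rose by 1.05 ± 0.09 in probe set 1418245_a_at (adjusted p = 2.77e-07), Rbm25 by 1.05 ± 0.23 (adjusted p = 0.00318), and Qk, the quaking protein, changed by -1.22 ± 0.24, -1.03 and -0.44 in 3 probe sets (adjusted p = 0.00113, 0.00149 and 0.00025).

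Of the 25 probe sets of paraspeckle and FET proteins, 5 were higher and 7 lower at 12 h, against 11.5% and 11.8% of all kept probe sets. Sfpq, a paraspeckle protein that also binds polypyrimidine tracts, fell at every time in probe set 1423795_at, by -0.55, -1.16 and -1.50 ± 0.09 (adjusted p = 0.00627, 1.19e-06 and 1.6e-08). Taf15, an RNA-binding FET protein, changed by 1.02 at 3 h (adjusted p = 0.0737, not called), 1.51 ± 0.26 at 6 h and 2.06 ± 0.26 at 12 h in 1438130_at (adjusted p = 0.00128 and 1.83e-05). Tardbp, or TDP-43, changed by -1.24 ± 0.27 and -0.72 in 2 probe sets and by 0.41 in another at 12 h (adjusted p = 0.00246, 2.01e-06 and 0.00349). The exon junction complex and decay factors (12 probe sets) had 3 higher (25.0%) and 1 lower (8.33%). The 3 became 0 without DMSO replicate 2 or 12 h replicates 2 or 3, and the 1 became 0 without DMSO replicate 1 or 12 h replicate 2 and 2 without DMSO replicate 2.

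**Figure D5:**
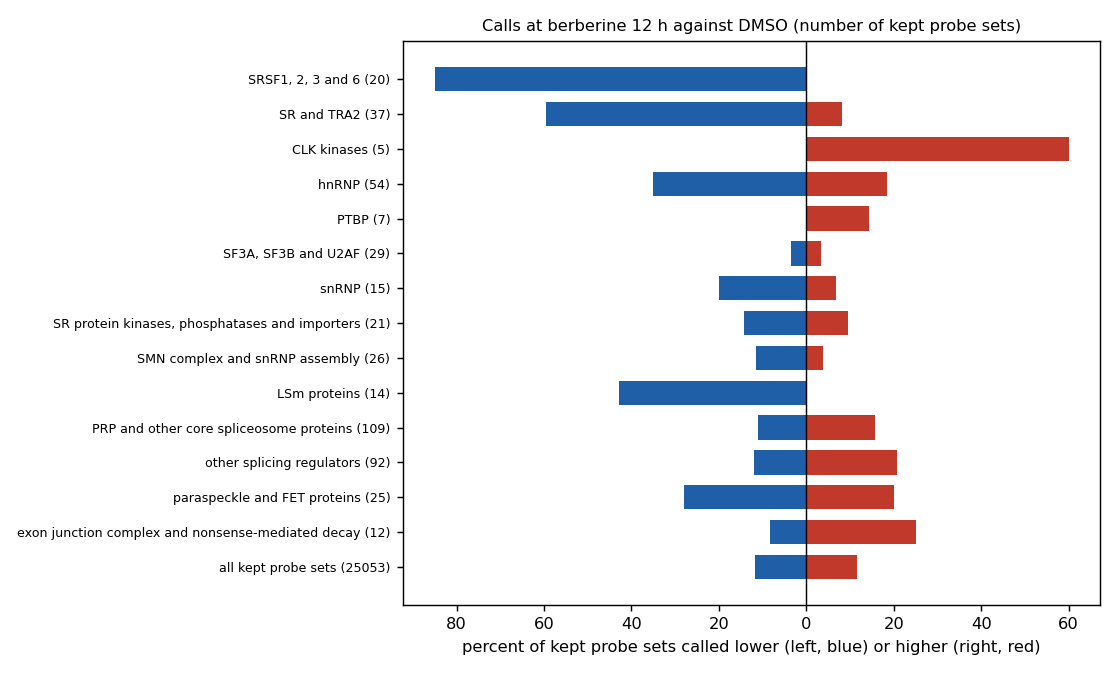
Percent of kept probe sets called lower (blue, left) and higher (red, right) at 12 h against DMSO in each splicing-factor class, each other list and over all kept probe sets, with the number of probe sets in brackets. In the bottom row, for all kept probe sets, 11.8% were lower and 11.5% higher.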

How the data were processed

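The authors deposited log2 signals, a column for each array, covering 45101 probe sets that include 64 controls. The submitters' processing notes name MAS5, with no version in the sources used here. No further normalization was applied. Probe sets were tested if 3 or more of the 12 arrays reached the median log2 signal of the non-control probe sets (5.77, or 54.6 on the linear scale).

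Group differences were fitted in limma 3.58.1 (R 4.3.3) with lmFit on all 12 arrays, a mean for each group, and eBayes with a trend on intensity. This left 8 residual degrees of freedom. Tests were two-sided, Benjamini-Hochberg adjustment ran over 25053 probe sets, or over 9570 pairs of probe sets of 5611 genes, and the fits were tested on simulated data. A fold is the ratio of geometric means. Tables and figures were made with Python 3.11.15, pandas 2.3.3 and matplotlib 3.10.9. Genes were named through the platform annotation. The members, lists and tests were chosen with earlier results of these data known. Named were the called members with the largest changes, the 2 largest per class, genes with unequal pairs, single well-known genes, and up to 3 called genes per further list, some left out for space. Same-numbered arrays of different groups did not deviate together (correlations of -0.09 to 0.051), so the numbers were not taken as pairs. Alternatives were quantile normalization, median centring, other filters and floors, eBayes without trend, 2 groups alone, a replicate block, 1 probe set per gene, and leaving out each array. The number of arrays limits the precision.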

Additional observations from a re-analysis of the deposited data

Results flagged for a closer look

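These results are listed because a change with berberine differed between times by limma's test of that difference (adjusted p under 0.05 over 25053 probe sets). Only up to 3 of the largest rises and falls per comparison are given, so other called members are left out. The called members numbered 11 for 6 h against 3 h, 13 for 12 h against 6 h and 40 for 12 h against 3 h. From 3 h to 6 h the Srsf3 probe sets 1434512_x_at and 1416151_at and the Srsf1 probe set 1428100_at differed by -0.79, -0.70 and -0.64 in log2 signal (adjusted p = 0.0448, 0.00378 and 0.0322). The call of 1416151_at held without each array. That of 1428100_at became 0.0826, 0.0927, 0.131, 0.13 and 0.0938 without 3 h replicates 1, 2 and 3 and 6 h replicates 2 and 3. That of 1434512_x_at was lost without 12 h replicates 1 (0.0517) and 2 (0.0546), 3 h replicates 1 (0.0827), 2 (0.105) and 3 (0.193), 6 h replicates 1 (0.116), 2 (0.166) and 3 (0.0632) and DMSO replicate 1 (0.0609).

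From 6 h to 12 h Srsf3 1416151_at differed by -0.62 (adjusted p = 0.00296), Srsf6 1447898_s_at by -0.50 (0.0276), Srsf1 1430982_at by -0.48 (0.0225) and Sf3b2 1429362_a_at by 0.34 (0.0476). Without 12 h replicates 2 and 3 and 6 h replicates 2 and 3 the Srsf6 value became 0.11, 0.0979, 0.0942 and 0.122. Without 12 h replicates 2 and 3 and 6 h replicates 1 and 3 the Srsf1 value became 0.0942, 0.0561, 0.0728 and 0.0778. The Sf3b2 call was lost without each array but 12 h replicate 1, with adjusted p from 0.0511 without 3 h replicate 1 to 0.184 without 12 h replicate 3.

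From 3 h to 12 h Srsf3 1416151_at differed by -1.32 and 1434512_x_at by -1.23 (adjusted p = 6.71e-07 and 0.000253). Clk3 differed by 0.43 (0.0159, or 0.051, 0.0664 and 0.0772 without 12 h replicates 1 and 3 and 3 h replicate 2) and Ptbp3 by 0.27 (0.013, or 0.0509, 0.0544 and 0.0617 without 12 h replicate 2 and 3 h replicates 1 and 2). Hnrnpdl 1449039_a_at differed by 0.29 (0.035, or 0.0733, 0.093, 0.0795, 0.0867 and 0.165 without 12 h replicates 1, 2 and 3 and 3 h replicates 1 and 3). Snrpb2 1452131_at also passed this test (adjusted p = 0.0253), but all its 12 h values lay under the detection threshold, so no size is given. Its call was lost with dim values raised to the threshold (0.434), and became 0.0806, 0.0981, 0.081, 0.0566 and 0.0723 without 12 h replicates 1 and 2 and 3 h replicates 1, 2 and 3.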

How the results depend on the processing

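Over the single probe sets and called pairs under all alternatives, 8960 values stayed on their side of the threshold, 331 lost a call, 69 gained one in the same direction and no called value reversed. Of the calls, 0 of 4 at 3 h, 28 of 42 at 6 h, 44 of 64 at 12 h and 2 of the 19 unequal pairs at 12 h held under every alternative. With 3 arrays a group, small changes could go uncalled, and dim probe sets give only noisy values. Quantile normalization and median centring moved the median of all kept probe sets by at most 0.025.

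Without the intensity trend, the higher and lower counts were 0 and 0 at 3 h (3 and 1 in the report), and the higher counts 4 at 6 h (9) and 11 at 12 h (19); between times 3 were called at 6 h against 3 h (11) and 2 at 12 h against 6 h (13). With 1 probe set per gene, 5 were higher and 12 lower at 6 h (33 lower in the report) and 15 lower at 12 h (45), with 3, 4 and 15 called at 6 h against 3 h, 12 h against 6 h and 12 h against 3 h (40 in the report for the last) and 23 by the F test (52). Fewer probe sets were tested there, 57 for the members among 12136 in all. The shares called over all 12136 are not given here, so these counts do not show whether the members stood out in that fit. Median centring left 6 calls at 6 h against 3 h. Using only the 2 groups compared left 8 at 12 h against 6 h. The lower count at 3 h was 2 with all 12 arrays required above the threshold, and 2 with the replicate block, which rests on numbers that the data did not bear out as pairs. Unequal pairs at 6 h (1 in the report) numbered 0 with quantile normalization, no filter, only the 2 groups or the replicate block, 6 with all 12 arrays required above the threshold and 3 with dim values raised. At 12 h (19) they numbered 9 with no filter and 3 with only the 2 groups.

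Leaving out each array in turn gave 0 to 3 higher and 0 to 2 lower at 3 h, 5 to 9 and 27 to 33 at 6 h, 10 to 21 and 36 to 46 at 12 h, 3 to 13, 5 to 14 and 29 to 43 calls for 6 h against 3 h, 12 h against 6 h and 12 h against 3 h, 45 to 55 by the F test, and 0 to 0, 0 to 0 and 10 to 19 unequal pairs at 3, 6 and 12 h.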
